A study of Homo sapiens with 16 samples.

Results

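The 9 genes described here encode enzymes that make, recycle or remove deoxynucleoside triphosphates (dNTPs), the building blocks of DNA. They were chosen by name, as the rows RRM1, RRM2, TYMS, SHMT1, DUT, TK1, DCK, SAMHD1 and DCTPP1 of a table of 59081 genes. Earlier results of these data were known when they were chosen. All 9 passed the filter on low counts and were among the 20446 genes tested. RNA was sequenced from U2OS cells, a human osteosarcoma line, that were grown to confluence and then kept without serum for 48 h to make them quiescent. For the last 24 h, cells received 10 µM harmine hydrochloride or its vehicle water, or 25 µM INDY or its vehicle DMSO, and each of the 4 groups had 4 libraries. The study used both compounds as inhibitors of DYRK1A, the kinase whose phosphorylation of LIN52 is needed for assembly of the DREAM repressor complex, and asked whether genes held down by DREAM in quiescent cells were derepressed. Harmine is a beta-carboline alkaloid and INDY a benzothiazole derivative, and their doses and vehicles differed, so that neither is a dose-matched partner of the other. All groups share 1 cell line, and neither the labels nor the methods say that replicates came from separate cultures, so that p-values measure how these libraries scatter, which may be only technical.

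Cells make dNTPs by 2 routes. In the de novo route, ribonucleotide reductase removes an oxygen from ribonucleotides, and thymidylate synthase adds a methyl group to dUMP to give dTMP. In the salvage route, kinases phosphorylate deoxynucleosides taken up or recovered by the cell. Other enzymes hydrolyse surplus or modified dNTPs. Supply is known to rise in S phase, and in non-dividing cells the dNTP pool is small, so that several of these genes are used as markers of the G1/S transition. Their promoters are known for E2F sites and CCAAT boxes, and cell cycle promoters repressed by DREAM are known to carry cell cycle genes homology region (CHR) elements close to the start site.

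The 250 bases before the start of each gene's MANE Select transcript (the reference transcript agreed by NCBI and Ensembl) were read from GRCh38 with GENCODE 44 and searched on both strands. A CHR word (TTTGAA, or its variant TTTAAA, or its variant TTCGAA) was found in 3 of the 9 genes (RRM1, RRM2 and TK1), where 18% of 20032 protein-coding promoters of this length hold at least 1. CCAAT was found in 6 of 9 (RRM1, RRM2, SHMT1, TK1, SAMHD1 and DCTPP1) and in 34.3% of all promoters. An E2F word (TTTCCCGC, TTTCCCGG, TTTCGCGC, TTTCGCGG, TTTGCCGC, TTTGCCGG, TTTGGCGC or TTTGGCGG) was found only in TYMS, and in 6.86% of all promoters. The DUT and DCK windows held no match of any of these words. The last 150 bases of 4 windows are shown, because they hold the CHR and E2F matches nearest the start sites. Matches are in capitals, ATTGG is CCAAT on the other strand, and each sequence runs 5′ to 3′ on the gene's strand and ends at the base before the start site.
RRM2, chr2:10122589-10122738, plus strand: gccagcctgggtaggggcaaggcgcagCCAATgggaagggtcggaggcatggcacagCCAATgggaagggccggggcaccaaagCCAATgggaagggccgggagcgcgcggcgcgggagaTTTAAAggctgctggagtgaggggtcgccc
TK1, chr17:78187053-78187202, minus strand: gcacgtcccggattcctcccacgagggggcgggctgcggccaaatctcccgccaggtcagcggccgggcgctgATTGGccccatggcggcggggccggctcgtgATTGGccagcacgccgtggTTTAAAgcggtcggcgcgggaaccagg
TYMS, chr18:657503-657652, plus strand: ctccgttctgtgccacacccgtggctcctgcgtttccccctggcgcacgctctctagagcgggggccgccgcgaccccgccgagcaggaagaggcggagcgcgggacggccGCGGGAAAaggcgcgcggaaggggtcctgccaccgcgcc
RRM1, chr11:4094649-4094798, plus strand: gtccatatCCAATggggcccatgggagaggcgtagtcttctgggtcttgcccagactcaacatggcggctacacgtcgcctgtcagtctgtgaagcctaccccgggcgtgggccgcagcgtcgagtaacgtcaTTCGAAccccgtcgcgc
RRM2 has 3 CCAAT boxes on the gene's strand, starting 123, 93 and 66 bases upstream, and TTTAAA at 30 to 25 bases upstream. TK1 has 2 CCAAT boxes on the opposite strand, starting 77 and 46 bases upstream, and TTTAAA at 27 to 22 bases upstream. Another TTTAAA of TK1 lies at 250 to 245 bases upstream, outside the bases shown. In RRM1 the CHR word lies at 17 to 12 bases upstream, and in TYMS the E2F word lies on the opposite strand at 39 to 32 bases upstream. Exons of other transcripts of the same gene cover all 250 bases of the RRM2 window, 181 of the TK1 window and 92 of the RRM1 window. A match is a description of these letters. It does not show that a word acts as the element it is named after, and binding was not tested.

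Estimated counts per library summed to 44301910 to 65889667, and the lowest value of any of the 9 genes in any library was 26.2 CPM (counts per 1 M, mega, of the library's counts), for SHMT1 in INDY replicate 3. CPM here are scaled by TMM, which corrects for differences in library composition. Harmine libraries and INDY libraries lay apart from their controls and from each other on the first and second principal components of all genes. Within groups, water replicates 1 and 4 lay apart from replicates 2 and 3, and INDY replicates 1 and 3 from replicates 2 and 4. Of 6 markers of cycling cells (MKI67, TOP2A, CCNA2, CCNB1, CDK1 and PCNA), all were far above 1 CPM on average. In water they ranged from 50.1 CPM (CDK1) to 555 CPM (TOP2A), and the share of cells that were quiescent was not tested. Their summed level was 1410 to 1490 CPM with harmine and 1040 to 1250 CPM with water, and 1280 to 1510 CPM with INDY and 1260 to 1340 CPM with DMSO. TOP2A and PCNA were called higher with harmine (log2 fold changes 0.47 and 0.5), and CCNB1 and PCNA with INDY (0.52 and 0.13). MKI67 (0.03 with harmine and -0.07 with INDY), CCNA2 (0.22 and 0.02) and CDK1 (0.21 and -0.05) were called with neither. In bulk RNA a change in the number of cells of a kind cannot be told apart from a change in RNA per cell. Of 8 osteoblast lineage markers, 4 (SPARC, COL1A1, RUNX2 and ALPL) averaged at least 1 CPM and COL1A2, SP7, IBSP and BGLAP did not. The sum of all 8 was 1100 to 1140 CPM with harmine and 858 to 947 CPM with water, and 581 to 693 CPM with INDY and 822 to 902 CPM with DMSO. RUNX2 and SPARC were called higher with harmine (0.58 and 0.43) and COL1A1 and ALPL lower (-0.33 and -0.34), and all 4 were called lower with INDY (-0.53, -0.44, -0.36 and -2.29). EPCAM alone of 6 epithelial markers and CD68 alone of 6 blood cell markers reached 1 CPM. CD68 had 29.8 ± 4.06 CPM with INDY and 13.4 ± 1.32 CPM with DMSO and was called higher (1.15, adjusted p = 2.43e-09), and EPCAM was called lower with INDY (-0.59, adjusted p = 8.01e-07). Neither was called with harmine (0.08 and -0.09). The part of these markers in the results below was not tested.

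With harmine, 7 of the 9 genes rose against water, 1 fell and 1 was not called, at an adjusted p under 0.01 (edgeR's quasi-likelihood test, Benjamini-Hochberg over 20446 genes). Of all genes tested, 24.9% were called higher and 22.8% lower. The median log2 fold change of the 9 genes was 0.36, against 0.02 over all genes tested. Because the 9 were chosen with earlier results known, such counts and medians describe them and are not a test of the set. With INDY, 3 rose against DMSO, 3 fell and 3 were not called, where 33.2% of all genes were called higher and 33.4% lower, and the median of the 9 genes was -0.07, against -0.01 over all genes. TYMS, TK1 and DCK rose with both compounds (12.1% of all genes did), SAMHD1 fell with both (12%), and SHMT1 rose with harmine and fell with INDY (6.26%). RRM1, DUT and DCTPP1 rose with harmine and were not called with INDY, and RRM2 was not called with harmine and fell with INDY.

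**Figure D1:**
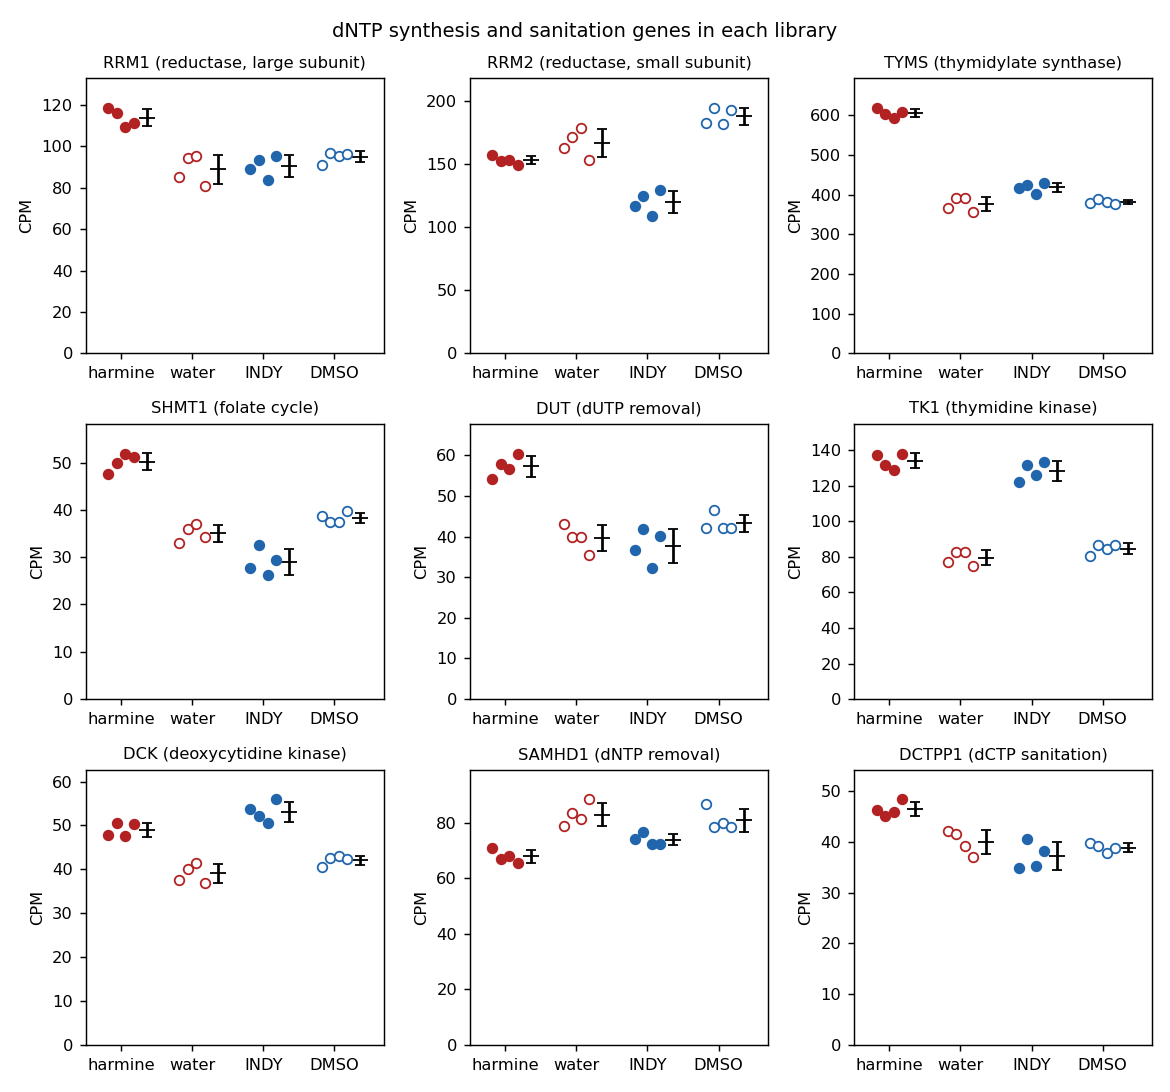
CPM (TMM-scaled) of the 9 genes in each of the 16 libraries, by group, with a panel for each gene and a bar for the mean ± SD of 4 libraries. TYMS and TK1 lie higher with harmine than with water in every library, and RRM2 lies lower with INDY than with DMSO in every library.

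Ribonucleotide reductase makes deoxyribonucleotides from ribonucleotides and is built of a large catalytic subunit, RRM1, and a small subunit that carries the radical, which in S phase is RRM2. RRM1 (chromosome 11, 4094707 to 4138932) had 119, 116, 110 and 112 CPM in harmine replicates 1 to 4, against 85.0, 94.3, 95.3 and 81.0 CPM in water. All harmine libraries lay above all water libraries, and water replicates 1 and 4 were the lowest. RRM1 rose with harmine by a log2 fold change of 0.36 (SE 0.05, 95% interval 0.25 to 0.46, adjusted p = 5.55e-06), and by 0.27 without water replicates 1 and 4 (adjusted p = 0.000214). INDY replicates 1 to 4 had 89.2, 93.4, 83.6 and 95.5 CPM, against 91.2, 96.7, 95.4 and 96.5 CPM in DMSO. These groups overlapped, and the log2 fold change was -0.07 (95% interval -0.17 to 0.03, adjusted p = 0.206).

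RRM2 (chromosome 2, 10120698 to 10211725) had no rise with either compound. Harmine replicates 1 to 4 had 157, 152, 154 and 150 CPM, against 163, 172, 179 and 153 CPM in water. The groups overlapped through water replicate 4, and the log2 fold change of -0.12 (SE 0.05, 95% interval -0.22 to -0.02) was not called (adjusted p = 0.0408). Without water replicate 4 it was -0.16 and called lower (adjusted p = 0.00848), as it was without INDY replicate 3, which enters only through the shared scaling and spread (-0.14, adjusted p = 0.00887). It was -0.19 without water replicates 1 and 4 (adjusted p = 0.00537) and -0.14 without INDY replicates 1 and 3 (adjusted p = 0.0057), called lower both times. In INDY replicates 1 to 4 RRM2 had 117, 125, 109 and 129 CPM, against 182, 195, 182 and 193 CPM in DMSO. Every INDY library lay below every DMSO library, and RRM2 fell by 0.65 on the log2 scale (SE 0.05, adjusted p = 7.9e-10), to 0.638 of its level in DMSO. This was the largest change of RRM2 or RRM1 with either compound. Leaving out INDY replicates 1 and 3, the lower of the INDY libraries, gave -0.56 (adjusted p = 1.52e-08).

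Within each library the log2 CPM of RRM2 minus that of RRM1 averaged 0.43 ± 0.04 with harmine and 0.91 ± 0.03 with water, and 0.41 ± 0.02 with INDY and 0.98 ± 0.04 with DMSO (SD, n = 4 each). The ratio of the CPM, not corrected for length, was thus 1.34 with harmine and 1.87 with water, and 1.32 with INDY and 1.98 with DMSO. The difference was smaller with both compounds than in their controls, while RRM1 alone was called with harmine and RRM2 alone with INDY. The alternative small subunit RRM2B, which is known as a p53 target that serves DNA repair in resting cells and was named after its values were seen, had 355 ± 13.4 CPM with harmine and 343 ± 28.5 CPM with water (log2 fold change 0.05, adjusted p = 0.463). It had 332 ± 31.2 CPM with INDY and 286 ± 11.3 CPM with DMSO, and was called higher (0.22, adjusted p = 0.003). Even so, the lowest INDY library, at 293 CPM, lay below the highest DMSO library, at 301 CPM. RRM2B was itself called lower in DMSO than in water by the same test (-0.26, adjusted p = 0.00912).

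**Figure D2:**
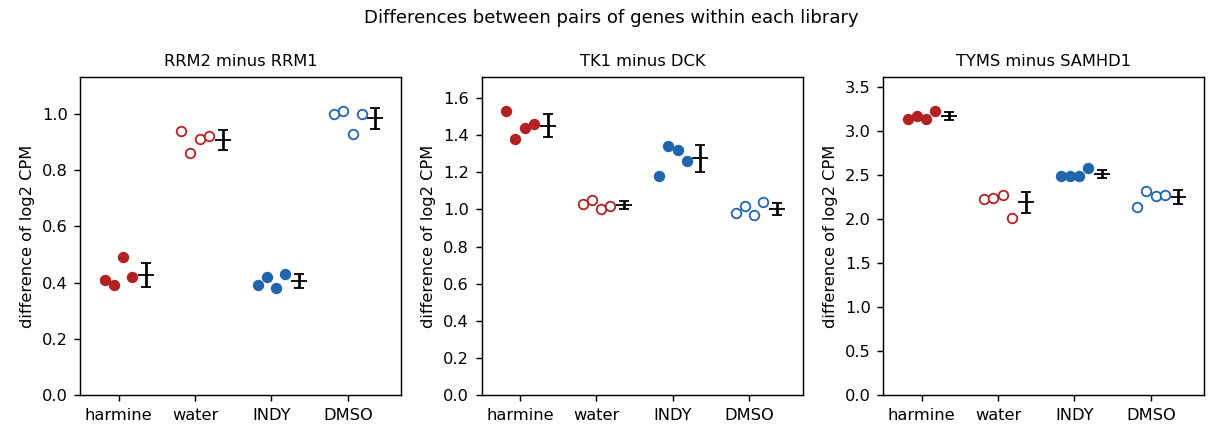
Difference of log2 CPM between 2 genes within each library, by group, for RRM2 minus RRM1, TK1 minus DCK and TYMS minus SAMHD1, with the mean ± SD of 4 libraries beside the points. RRM2 minus RRM1 averages 0.43 with harmine and 0.91 with water, and 0.41 with INDY and 0.98 with DMSO.

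Thymidylate supply is the work of 3 of the genes. Thymidylate synthase, TYMS, methylates dUMP to dTMP with methylene-tetrahydrofolate, SHMT1 is the cytosolic serine hydroxymethyltransferase that makes this folate, and DUT hydrolyses dUTP to dUMP, which feeds TYMS and keeps uracil out of DNA. All 3 rose with harmine, by log2 fold changes of 0.52 to 0.69, and they went in different ways with INDY.

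TYMS (chromosome 18, 657653 to 673578) had 619, 604, 593 and 610 CPM in harmine replicates 1 to 4, against 367, 393, 392 and 356 CPM in water. The groups were far apart, and TYMS rose 1.61-fold (log2 fold change 0.69, SE 0.03, adjusted p = 3.82e-12). With INDY the 4 replicates had 416, 426, 403 and 429 CPM, against 380, 388, 382 and 377 CPM in DMSO. Every INDY library lay above every DMSO library, but the rise was small, 1.1-fold (log2 fold change 0.13, SE 0.03, adjusted p = 0.000942). TYMS overlaps the opposite-strand gene ENOSF1 over 3261 bp, and the library kit kept strand. Whether strand was used in counting is not given in the sources used here. ENOSF1 had 17.4 ± 0.363 CPM with harmine and 11.5 ± 0.851 CPM with water, and 6.8 ± 0.816 CPM with INDY and 13.6 ± 0.956 CPM with DMSO, so that it was called higher with harmine (log2 fold change 0.59) and lower with INDY (-1), where TYMS was called higher.

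SHMT1 (chromosome 17, 18327860 to 18363563) had 47.7, 50.0, 51.9 and 51.3 CPM in harmine replicates 1 to 4, against 33.0, 36, 37.0 and 34.2 CPM in water. In INDY replicates 1 to 4 it had 27.7, 32.5, 26.2 and 29.4 CPM, against 38.8, 37.4, 37.4 and 39.7 CPM in DMSO. Harmine libraries lay above, and INDY libraries below, every library of their own controls. SHMT1 rose 1.43-fold with harmine (log2 fold change 0.52, SE 0.05, adjusted p = 1.36e-07) and fell by 0.41 on the log2 scale with INDY (SE 0.05, adjusted p = 1.87e-06). It is the only one of the 9 genes called in opposite directions. The deposited identifier of SHMT1 differs from that in GENCODE 44, so the gene was matched by symbol.

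DUT (chromosome 15, 48331011 to 48343373) had 54.2, 58.0, 56.6 and 60.4 CPM in harmine replicates 1 to 4, against 43.2, 39.9, 39.9 and 35.4 CPM in water, with no overlap. It rose 1.45-fold (log2 fold change 0.53, SE 0.07, adjusted p = 1.95e-06). INDY replicates 1 to 4 had 36.6, 41.9, 32.4 and 40.1 CPM, against 42.2, 46.6, 42.2 and 42.1 CPM in DMSO. The INDY libraries all lay below the DMSO libraries, by little in replicate 2, and the log2 fold change of -0.2 (95% interval -0.34 to -0.05) was not called (adjusted p = 0.0143). It was called without INDY replicate 2 (-0.25, adjusted p = 0.00335) or without water replicate 4 (-0.2, adjusted p = 0.00872), and without water replicates 1 and 4 (-0.2, adjusted p = 0.0085). DUT was also called lower by DESeq2 (-0.19, adjusted p = 0.00943), by edgeR with upper-quartile factors (-0.22, adjusted p = 0.00868) and by edgeR with no filter on low counts (-0.22, adjusted p = 0.00207). Without INDY replicates 1 and 3 it was -0.07 (adjusted p = 0.338).

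The salvage kinases rose with both compounds. TK1 (chromosome 17, 78174091 to 78187233), the cytosolic thymidine kinase and a marker of S phase, had 138, 132, 129 and 138 CPM in harmine replicates 1 to 4, against 76.8, 83.0, 83.0 and 75.0 CPM in water. The INDY libraries had 122, 132, 126 and 134 CPM, against 80.3, 86.4, 84.3 and 86.9 CPM in DMSO. The groups did not come near each other in either comparison. TK1 rose 1.69-fold with harmine (log2 fold change 0.75, SE 0.04, adjusted p = 2.19e-11) and 1.52-fold with INDY (0.6, SE 0.04, adjusted p = 1.24e-10), and had the largest rise of the 9 genes with each compound.

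DCK (chromosome 4, 70992538 to 71030914), the kinase for deoxycytidine and purine deoxynucleosides, is used through the cell cycle. It had 47.7, 50.6, 47.5 and 50.2 CPM in harmine replicates 1 to 4, against 37.7, 40.1, 41.5 and 37.0 CPM in water. In INDY replicates 1 to 4 it had 53.8, 52.2, 50.5 and 55.9 CPM, against 40.6, 42.5, 43.0 and 42.3 CPM in DMSO. Both pairs of groups were apart. DCK rose 1.25-fold with harmine (log2 fold change 0.33, SE 0.04, adjusted p = 1.77e-06) and 1.26-fold with INDY (0.34, SE 0.04, adjusted p = 5.63e-07). DCK overlaps MOB1B on the same strand over 29912 bp, and 3.04% of the 100-nt stretches of its transcripts occur in MOB1B, so that its reads may be shared. MOB1B fell by 0.19 on the log2 scale with harmine (adjusted p = 0.000868) and rose by 0.26 with INDY (adjusted p = 1.71e-05). TK1 minus DCK in log2 CPM was 1.45 ± 0.06 with harmine and 1.02 ± 0.02 with water, and 1.27 ± 0.07 with INDY and 1.01 ± 0.03 with DMSO (SD, n = 4 each), and was wider with both compounds than in their controls.

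SAMHD1 and DCTPP1 remove nucleotides. SAMHD1 (chromosome 20, 36890229 to 36951893), the hydrolase that splits dNTPs into deoxynucleosides and triphosphate and keeps their pools low in resting cells, was the only gene of the 9 called lower with harmine. It had 70.9, 66.9, 67.9 and 65.6 CPM in harmine replicates 1 to 4, against 78.7, 83.3, 81.3 and 88.3 CPM in water. It fell by 0.29 on the log2 scale (SE 0.04, adjusted p = 5.58e-06), to 0.818 of its level in water, with no overlap of the groups. In INDY replicates 1 to 4 it had 74.1, 76.6, 72.5 and 72.2 CPM, against 86.6, 78.3, 79.9 and 78.2 CPM in DMSO. All INDY libraries lay below all DMSO libraries, and DMSO replicate 1 was the highest. SAMHD1 fell by 0.13 with INDY (SE 0.04, adjusted p = 0.00689), and this call was lost without DMSO replicate 1 (adjusted p = 0.0361) or 3 (0.0123) or without INDY replicate 1 (0.0145), 3 (0.0177) or 4 (0.0234), and without INDY replicates 1 and 3 together (0.0437).

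DCTPP1 (chromosome 16, 30423615 to 30430030), a pyrophosphatase that hydrolyses dCTP and modified cytidine nucleotides, had 46.2, 45.2, 45.9 and 48.3 CPM in harmine replicates 1 to 4, against 42.1, 41.6, 39.1 and 37.0 CPM in water. The groups did not overlap, and DCTPP1 rose 1.16-fold (log2 fold change 0.22, SE 0.05, adjusted p = 0.00081), the smallest of the 7 rises. With INDY, replicates 1 to 4 had 34.8, 40.6, 35.2 and 38.1 CPM, against 39.8, 39.1, 37.8 and 38.7 CPM in DMSO, and these groups overlapped (log2 fold change -0.06, 95% interval -0.17 to 0.04, adjusted p = 0.243). The whole of DCTPP1 lies opposite ZNF771 (6416 bp), which had 4.18 ± 0.327 CPM with harmine and 4.1 ± 0.403 CPM with water and was not called with either compound. TYMS minus SAMHD1, a gene of supply against a gene of removal, was 3.16 ± 0.04 in log2 CPM with harmine and 2.18 ± 0.12 with water, and 2.5 ± 0.05 with INDY and 2.24 ± 0.08 with DMSO (SD, n = 4 each). Such pairs were taken from genes chosen with earlier results known, and each difference restates the changes of its genes. It does not measure dNTP pools.

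Counted over all 9 genes, the harmine libraries lay above every water library for 7 genes and below for 1 (28.6% and 26.4% of all genes), with overlap only for RRM2. The INDY libraries lay above every DMSO library for 3 genes and below for 4 (33.4% and 34.1% of all genes). The share of all genes that is called with INDY is so large, 66.6%, that 6 of 9 is close to it. With harmine, 8 of 9 stands beside 47.7% of all genes. Scarce genes are called less readily than these 9. Among genes with at least 10 counts in every library, 54.1% were called with harmine and 70.4% with INDY. With a change of at least 1.5-fold as well, 2 of the 9 were called with harmine (TYMS and TK1, where 16.3% of all genes were) and 2 with INDY (TK1 higher and RRM2 lower, where 33.7% were). In the difference between the effects described next, SHMT1 and DUT reached that size (29.1% of all genes).

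**Figure D3:**
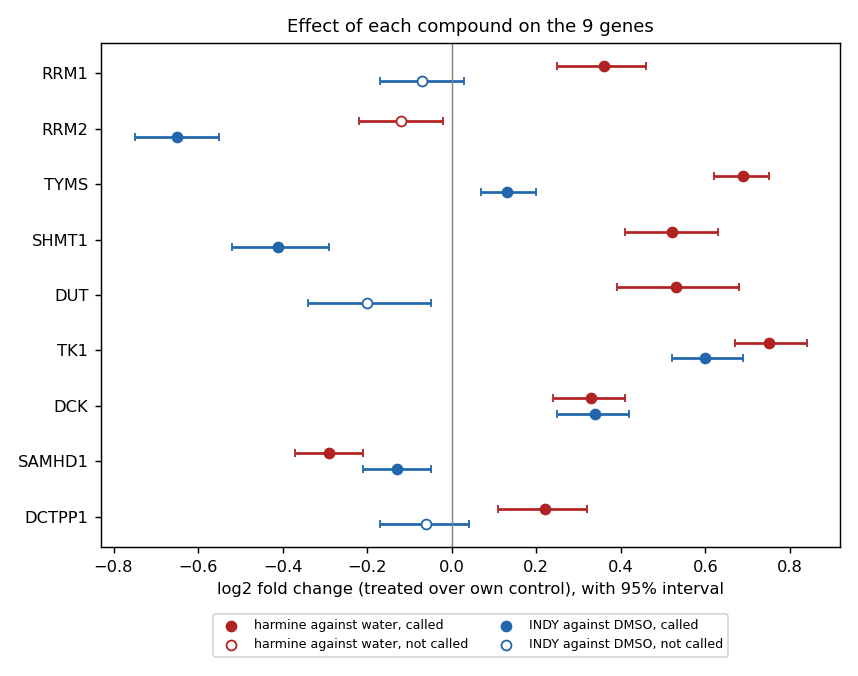
Log2 fold change of each of the 9 genes with harmine (against water) and with INDY (against DMSO), with 95% intervals. Filled points passed an adjusted p of 0.01. TK1 and DCK have points on the same side for both compounds, whereas SHMT1 lies at 0.52 with harmine and -0.41 with INDY.

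Because the doses and vehicles differ, the difference between the effects compares these treatments and not the molecules at equal strength. For 6 of the 9 genes the signed log2 fold change with harmine lay above that with INDY and for none below, as for 28.1% and 26.4% of all genes. A value above does not mean a stronger effect of harmine. RRM2 moved by -0.12 with harmine, which was not called, and by -0.65 with INDY. At an unadjusted p under 0.05 in edgeR's quasi-likelihood test, 1 gene (SAMHD1) lay below, as did 33.2% of all genes. At an adjusted p under 0.01, DESeq2 called SAMHD1 below (-0.17, adjusted p = 0.00635), while limma voom called 0. The difference was largest for SHMT1, at 0.92 on the log2 scale (SE 0.08, 95% interval 0.76 to 1.08, adjusted p = 6.55e-09). DUT followed at 0.73 (SE 0.1, adjusted p = 2.55e-06), TYMS at 0.55 (SE 0.04, adjusted p = 4.81e-09), RRM2 at 0.53 (SE 0.07, adjusted p = 2.53e-06) and RRM1 at 0.43 (SE 0.07, adjusted p = 3.16e-05). DCTPP1 differed by 0.28 (SE 0.07, adjusted p = 0.00155), and by 0.18 without INDY replicates 1 and 3 (adjusted p = 0.0228). The salvage kinases were the genes that did not pass among those raised by both compounds. TK1 differed by 0.15 (95% interval 0.03 to 0.27, adjusted p = 0.0253), by 0.09 without water replicates 1 and 4 (adjusted p = 0.16) and by 0.08 without INDY replicates 1 and 3 (adjusted p = 0.221). DCK differed by -0.01 (95% interval -0.13 to 0.11, adjusted p = 0.909). SAMHD1 differed by -0.16 (95% interval -0.28 to -0.04, adjusted p = 0.0194), and leaving out water replicate 3, harmine replicate 1, DMSO replicate 1, INDY replicate 3 or INDY replicate 4 brought it past the threshold.

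The 2 kinds of mock-treated cells were close in these genes but not alike, with a median log2 fold change of 0.09, against 0 over all genes. None of the 9 was called between DMSO and water, where 1.58% of all genes were called higher and 2.71% lower. At an unadjusted p under 0.05 in edgeR's quasi-likelihood test, 4 were higher in DMSO (RRM2, SHMT1, TK1 and DCK) and 0 lower, against 12.7% and 14% of all genes. At an adjusted p under 0.01, DESeq2 called 1 and limma voom 0. RRM2 had the largest log2 fold change, 0.17 (SE 0.05, adjusted p = 0.0271), with 188 ± 6.85 CPM in DMSO and 166 ± 11.1 CPM in water, and DMSO libraries lay above all water libraries for RRM2 and SHMT1 only (9.76% of all genes). The gene DESeq2 called was RRM2 (0.18, adjusted p = 0.00687), and with edgeR it was called without water replicate 3, INDY replicate 3, or INDY replicates 1 and 3 (0.18, adjusted p = 0.00524). Without water replicates 1 and 4 it was 0.1 (adjusted p = 0.411). The other 8 genes ranged from -0.04 to 0.13. The gap of RRM2 between the controls (0.17) was larger in size than its change with harmine (-0.12). Both controls enter the difference between the effects, so that such gaps enter it too.

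To compare levels between genes, CPM were divided by the length of the MANE Select transcript, as CPM per kb. TYMS was highest in every group, with 376 ± 6.66 CPM per kb with harmine and 234 ± 11.4 with water, and 259 ± 7.28 with INDY and 237 ± 2.89 with DMSO (SD, n = 4 each). TK1 followed, with 93.7 ± 3.04 CPM per kb with harmine and 55.5 ± 2.89 with water, and 89.7 ± 3.78 with INDY and 59 ± 2.12 with DMSO. RRM2 came after TK1, without overlap of their ranges with harmine and with INDY, whereas the ranges of TK1 and RRM2 overlapped with water (52.4 to 58 and 47 to 54.8 CPM per kb) and with DMSO (56.1 to 60.7 and 55.8 to 59.7). DCTPP1 was next and RRM1 below it, and their ranges were apart in every group but INDY, where DCTPP1 spanned 29.5 to 34.4 CPM per kb and RRM1 26.6 to 30.4. With INDY the range of RRM2 (33.5 to 39.6) overlapped that of DCTPP1 too. DUT and SAMHD1 overlapped with INDY (15.1 to 19.6 and 15.5 to 16.5 CPM per kb) and with water (16.5 to 20.2 and 16.9 to 19), and SAMHD1 and DCK with DMSO (16.8 to 18.6 and 16.2 to 17.1). At the low end SHMT1 and DCK could not be ordered with harmine (18.9 to 20.5 and 19 to 20.2 CPM per kb). SAMHD1 was lowest with harmine (14.6 ± 0.485 CPM per kb), and SHMT1 was lowest with INDY (11.5 ± 1.07), DMSO (15.2 ± 0.445) and water (13.9 ± 0.712). A single transcript length per gene does not allow for other isoforms.

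The gene whose log2 CPM, centred on its mean over the 16 libraries, had the smallest root mean square difference was sought for each of the 9, and is given for 8, among 13802 tested genes with a mean log2 CPM of at least 1. The 16 libraries fall into 4 groups, so that genes with like group means are near each other. ATAD2 was nearest to RRM1 (0.041 on the log2 scale), SNF8 to RRM2 (0.052) and CHURC1 to TYMS (0.041). SIX5 was nearest to DUT (0.069) and CCDC25 to TK1 (0.053). SNX5 was nearest to DCK (0.036), RAB3GAP1 to SAMHD1 (0.047) and COMMD4 to DCTPP1 (0.05). Among the 9 genes themselves, RRM1 and DCTPP1 were most alike (0.093), followed by SHMT1 and DUT (0.122), and the largest distance of a gene to its nearest was 0.225, between RRM2 and SAMHD1.

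The wider pathway was described with 5 lists that hold 60 further genes of nucleotide metabolism, of which 58 were tested (ADSS1 and CTPS2 did not pass the filter). With harmine 22 rose, 6 fell and 30 were not called, where 24.9% of all genes rose and 22.8% fell, and the median log2 fold change was 0.08. With INDY 21 rose, 24 fell and 13 were not called, where 33.2% of all genes rose and 33.4% fell, and the median was -0.06. Of the 58, 31 had a signed log2 fold change with harmine above that with INDY and 7 below it (28.1% and 26.4% of all genes). Those above include genes that only INDY moved, such as CTPS1 (0.08 with harmine, not called, and -1.33 with INDY). Between DMSO and water, 1 was higher and 2 lower (1.58% and 2.71% of all genes). Of the 58, 4 rose with harmine and fell with INDY, as SHMT1 did and as 6.26% of all genes did. These were MTHFD1 and IMPDH2, described below, and HPRT1 (0.25, adjusted p = 0.00227, and -0.25, adjusted p = 0.00182) and ITPA (0.16, adjusted p = 0.00795, and -0.37, adjusted p = 1.98e-06), both picked with their values in view.

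The list of 13 other enzymes of dNTP supply had 5 rises and 3 falls with harmine (24.9% and 22.8% of all genes). With INDY it had 4 rises and 5 falls (33.2% and 33.4% of all genes). DTYMK, the kinase that phosphorylates dTMP, had 65.8 ± 2.49 CPM with harmine and 36.3 ± 2.3 CPM with water, and 76.4 ± 1.49 CPM with INDY and 39 ± 1.01 CPM with DMSO. It rose with both, by 0.86 (adjusted p = 5.1e-12) and 0.97 (adjusted p = 1.85e-13), as TK1, which makes its substrate, did. DCTD, which deaminates dCMP to dUMP and so feeds TYMS by another way, had 44.9 ± 1.66 CPM with harmine and 55.4 ± 2.89 CPM with water, and 23.3 ± 2.57 CPM with INDY and 59.1 ± 1.36 CPM with DMSO. It fell by 0.31 on the log2 scale with harmine (adjusted p = 0.00016) and by 1.35 with INDY (adjusted p = 4.44e-13).

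Of 12 other genes of sanitation and breakdown, 6 rose and 2 fell with harmine (24.9% and 22.8% of all genes). With INDY 9 rose and 3 fell (33.2% and 33.4% of all genes). NT5M, the mitochondrial deoxynucleotidase, rose with harmine (log2 fold change 1.33, adjusted p = 2.76e-07) but is scarce, with 8.35 ± 0.634 CPM with harmine and 3.32 ± 0.701 CPM with water. It rose with INDY as well (0.51, adjusted p = 0.00354), at 6.15 ± 1.4 CPM with INDY and 4.29 ± 0.184 CPM with DMSO. NUDT1, which hydrolyses oxidised purine dNTPs, rose with harmine (0.85, adjusted p = 5.85e-09) and with INDY (0.46, adjusted p = 7.05e-06). PNP, which cleaves purine nucleosides, had 63 ± 0.634 CPM with harmine and 88.2 ± 1.87 CPM with water, and 130 ± 4.88 CPM with INDY and 82.9 ± 0.731 CPM with DMSO, so that it fell by 0.48 with harmine (adjusted p = 9.61e-11) and rose by 0.64 with INDY (adjusted p = 3.78e-13). DNPH1, which splits the base from modified deoxynucleotides, fell to 16.3 ± 0.958 CPM with INDY, against 35.8 ± 1.59 CPM with DMSO (adjusted p = 4.87e-13), and TYMP, thymidine phosphorylase, rose by 0.77 (adjusted p = 0.00125) at 1.34 ± 0.0783 CPM with INDY and 0.789 ± 0.159 CPM with DMSO.

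The folate one-carbon cycle supplies TYMS and the purine pathway with carbon. Among its 13 genes there were 2 rises and 1 fall with harmine (24.9% and 22.8% of all genes). With INDY there were 3 rises and 9 falls (33.2% and 33.4% of all genes). The median with INDY was -0.41, against -0.01 over all genes. MTHFD1, the cytosolic enzyme of the folate interconversions, rose by 0.39 with harmine (adjusted p = 5.13e-06) and fell by 0.34 with INDY (adjusted p = 1.46e-05). GGH, which trims folate polyglutamates, rose with harmine (0.24, adjusted p = 9.78e-06) and with INDY (0.42, adjusted p = 2.17e-09). SLC25A32, a mitochondrial carrier for folate, fell by 0.23 with harmine (adjusted p = 0.000121). The largest falls with INDY were those of ALDH1L1 and ALDH1L2, which oxidise formyl-tetrahydrofolate in the cytosol and in mitochondria. ALDH1L1 had 2.6 ± 0.362 CPM with INDY and 8.99 ± 0.143 CPM with DMSO and fell by 1.79 (adjusted p = 8.28e-13), and ALDH1L2 had 3.3 ± 1.3 CPM with INDY and 10.9 ± 0.489 CPM with DMSO and fell by 1.74 (adjusted p = 8.4e-08).

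In the purine list 6 of 14 genes rose and none fell with harmine (24.9% and 22.8% of all genes). With INDY 2 rose and 6 fell (33.2% and 33.4% of all genes). PRPS2, which makes the activated ribose of nucleotide synthesis, rose with harmine by 0.47 (adjusted p = 3.36e-07), and the adenine salvage enzyme APRT by 0.41 (adjusted p = 9.73e-08). IMPDH2, which directs inosine monophosphate to guanine nucleotides, rose with harmine by 0.37 (adjusted p = 0.000139) and fell with INDY by 0.49 (adjusted p = 2.64e-06). PFAS, an enzyme of the de novo pathway, fell with INDY by 0.42 (adjusted p = 8.98e-05). The rises with INDY were those of IMPDH1, the other form of that dehydrogenase (0.27, adjusted p = 1.61e-06), and ATIC, which closes the purine ring (0.21, adjusted p = 0.000189). ATIC rose with harmine as well (0.31, adjusted p = 6.33e-06). In the pyrimidine list 3 of 6 genes rose and none fell with harmine (24.9% and 22.8% of all genes). With INDY 3 rose and 1 fell (33.2% and 33.4% of all genes). CAD, which starts the de novo pathway, rose by 0.44 with harmine (adjusted p = 4.49e-09) and by 0.19 with INDY (adjusted p = 0.000106). DHODH, the mitochondrial enzyme of that pathway, rose by 0.43 with harmine (adjusted p = 0.000902). UCK1, a uridine and cytidine kinase, rose by 0.37 with harmine (adjusted p = 8.72e-07) and by 0.48 with INDY (adjusted p = 1.04e-08). The gene that fell was CTPS1, which makes CTP from UTP, with 37.9 ± 4.62 CPM with INDY and 95.2 ± 2.54 CPM with DMSO, a fall of 1.33 on the log2 scale (adjusted p = 3.59e-13). With harmine CTPS1 had 104 ± 3.26 CPM, against 98.1 ± 1.99 CPM with water (0.08, adjusted p = 0.239).

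**Figure D4:**
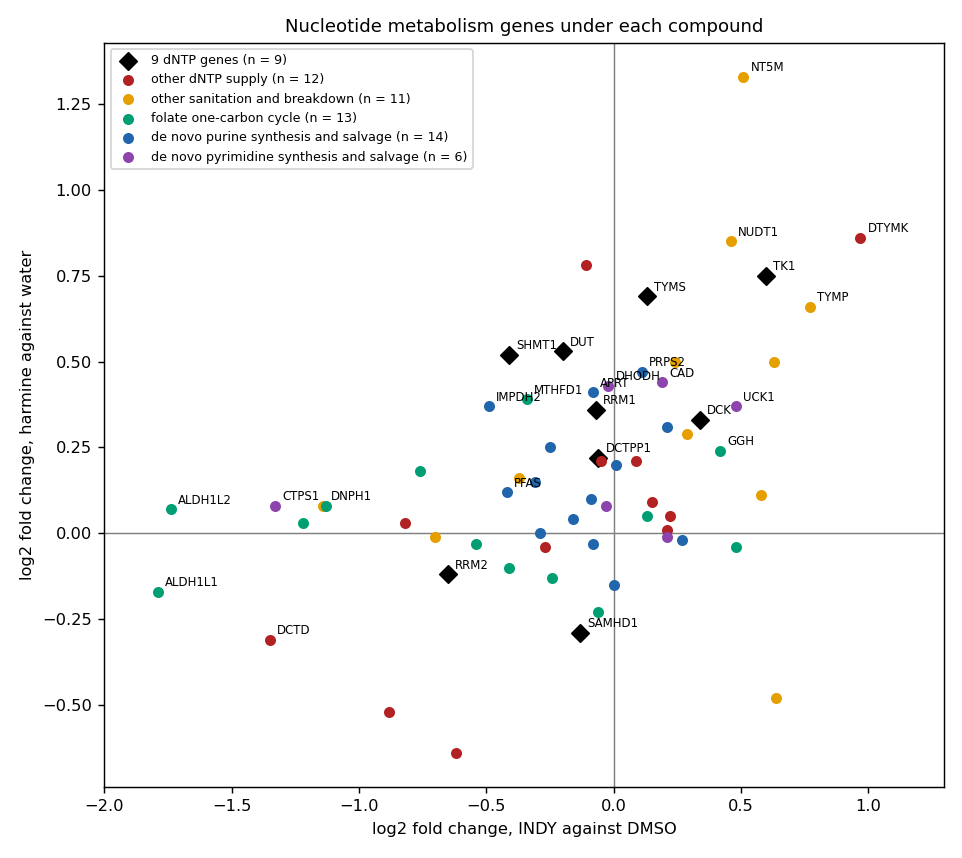
Log2 fold change with INDY against DMSO (x axis) and with harmine against water (y axis) for the 9 dNTP genes (diamonds) and 56 further genes of nucleotide metabolism (points coloured by list). TK1 and DTYMK lie in the upper right, and CTPS1, DCTD, ALDH1L1 and ALDH1L2 lie far to the left.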

How the data were processed

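The human RNA-seq table holds estimated counts per gene that the authors made with Salmon 1.1 (GENCODE 37 transcripts, GRCh38 genome as decoy, GC and sequence bias corrections) and collapsed to gene level with tximport 1.14.2. For their tests, edgeR 3.28.1 is named in the submitters' processing notes. The deposited estimated counts were rounded, filtered with filterByExpr and scaled by TMM. They were fitted in 1 quasi-likelihood model of the 4 groups (edgeR 4.0.16, R 4.3.3), with Benjamini-Hochberg adjustment over 20446 genes and a threshold of 0.01. The methods give edgeR and this threshold but not the test, filter or scaling. Log2 CPM used a prior count of 2. Intervals cover 95%. There were 4 comparisons: each compound against its own control, these 2 effects against each other, and DMSO against water.

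The 9 genes and the gene lists were chosen with earlier results of these data known. Named genes are the 9; per list and compound, the 2 called genes with the largest change, and any called where 2 or fewer go in that direction; and the nearest gene to each of the 9. Some genes that this rule names are not reported here. Alternatives were DESeq2 1.42.0, limma 3.58.1 (voom), upper-quartile factors, other filters and thresholds, only the libraries compared, a replicate block and left-out libraries. The 24 replicate pairs all differed by more than sampling noise (chi-square per gene 2.17 to 26.6), so that no library was counted as a repeat of another.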

Additional observations from a re-analysis of the deposited data

Results flagged for a closer look

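In DMSO, DUT had 46.6 CPM in replicate 2 and 42.1 to 42.2 CPM in the other 3 libraries, so that the gap took 0.989 of the group's range, past Dixon's 95% critical value for 4 samples. This was the only one of 36 groups of 4 libraries (9 genes in 4 groups) past that value, and chance flags about 1 group in 20. The INDY replicate with the highest DUT level was also replicate 2.

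The effects of the compounds on their own controls differed by the test of the difference itself (edgeR's quasi-likelihood test, adjusted p under 0.01) for 6 genes, at doses and in vehicles that differ. The difference, harmine minus INDY on the log2 scale, was 0.92 for SHMT1, 0.73 for DUT, 0.55 for TYMS, 0.53 for RRM2, 0.43 for RRM1 and 0.28 for DCTPP1.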

How the results depend on the processing

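Of the calls, 7 genes higher with harmine and 3 higher with INDY stood under every alternative except a fold of at least 1.5, which left 2 and 1. That fold also left 0 lower with harmine and 1 lower with INDY, 2 with a harmine effect above that of INDY, and, among the pathway genes, 5 higher and 1 lower with harmine, 4 higher and 12 lower with INDY, and 15 above and 1 below in the difference. An adjusted p under 0.05 gave 2 lower with harmine, 1 below in the difference and 1 higher in DMSO than in water. DESeq2 gave 1 below in the difference and 1 higher in DMSO, and no filter on low counts gave 1 higher in DMSO. Without water replicates 1 and 4 together, 2 genes were lower with harmine, and without INDY replicates 1 and 3 together, 2 were lower with harmine and 1 higher in DMSO. Members lower with INDY were 4 in place of 3 with DESeq2, upper-quartile factors, no filter on low counts, an adjusted p under 0.05, and without water replicates 1 and 4, since DUT was added (-0.22 to -0.19, adjusted p = 0.00207 to 0.0143). They were 2 without INDY replicates 1 and 3, since SAMHD1 was lost. The cause was not tested.

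When each library was left out in turn, members higher numbered 7 to 7 with harmine and 3 to 3 with INDY, members lower 1 to 2 and 2 to 4, and members higher in DMSO 0 to 1 and lower 0 to 0. The difference had 6 to 6 above and 0 to 1 below. Among the pathway genes 20 to 23 were higher and 6 to 7 lower with harmine, 18 to 22 higher and 23 to 24 lower with INDY, and 27 to 31 above and 7 to 10 below in the difference. Log2 fold changes turned sign only where they were not called, for DCTPP1 with INDY (0.02 without INDY replicates 1 and 3), for DCK in the difference (-0.05 to 0.01 over left-out libraries, 0 without water replicate 3 and 0.01 without DMSO replicate 1) and for TYMS between DMSO and water (-0.01 to 0.04, the lowest without water replicate 4, and -0.04 without water replicates 1 and 4).

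The replicate numbers paired the libraries weakly or not at all (12 same-number pairs, r of deviations -0.053 to 0.087, 5 of 12 closest to their own number). INDY libraries were closest to the DMSO library of their own number in replicates 1, 2 and 4 (r 0.087, 0.045 and 0.06), but not in replicate 3 (-0.019). DMSO libraries were closest to their water number in replicates 2 and 3, and harmine libraries in no replicate. With the replicate block the members lower with INDY were 2 in place of 3, since SAMHD1 (-0.13) had an adjusted p of 0.012. Depth was high for all 9 genes, with no value under 26.2 CPM. Whether counts or the number of libraries limits the precision was not tested.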
